A study of Caenorhabditis elegans with 2 samples.

Results

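Intron regions are here the regions of a ranked ChIP-seq peak list whose summit lay inside a protein-coding gene, in no exon of any gene, and outside the stretch from 1000 bp upstream to 200 bp downstream of every gene start. By that rule 15831 of 71547 ranked regions (22.1%) were intron regions, and the choice used position alone. The list came from chromatin immunoprecipitation with an anti-GFP antibody in whole young adult Caenorhabditis elegans, 64 hours old, of strain RW12238, raised from larvae that were starved at the L1 stage after bleaching. The allele of both samples is st12238[nfya-2::TY1::EGFP::3xFLAG], a CRISPR insertion that tags the endogenous nfya-2 gene with eGFP and short epitopes. The 2 libraries are biological replicates 1 and 2 of this 1 group, and neither an untagged strain nor another stage was analysed here, so no test between groups was possible. Whole worms mix all tissues, and a signal cannot be assigned to a cell type.

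NF-Y is a trimer of A, B and C subunits in animals, fungi and plants. Its B and C subunits fold like histones and hold DNA, and the A subunit reads the pentamer CCAAT, classically in promoters a short way upstream of the start of transcription. In the worm, nfya-1 and nfya-2 each encode an A subunit. Introns of worm genes can hold enhancers as well as dispersed and tandem repeats, and NF-Y binding outside promoters is known from mammalian cells.

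The sequences at the strongest intron regions show what the signals and word counts below rest on. Of the 25 intron regions with the highest signal, 7 held an extended CCAAT consensus, RRCCAATSR with R for A or G and S for C or G, within 100 bp of the summit. All 7 also held a word of 13 bases, which was found as the longest word shared by the 6 intron regions that held the extended consensus and were on the authors' conservative list. The 13 bases are in capitals below, with 14 bases on either side, each read on the strand that spells CCAAT; sequence is that of the RefSeq genome, build WBcel235 (ce11). The first 4 lines and the sixth and the eighth are the 6 regions that defined the word, and the others carry it without having been used to find it. In the copies shown the extended consensus begins 1 base before the capitals, except in fcd-2, where that base is c and the consensus lies elsewhere in the window. In order, the stretches are chrIII:9571016-9571056 (plus strand), chrII:341444-341484 (plus), chrIII:84538-84578 (plus), chrIV:15049840-15049880 (plus), chrIII:12161108-12161148 (plus), chrIV:15027582-15027622 (minus), chrIII:3417555-3417595 (plus), chrII:11963405-11963445 (plus) and chrII:12722173-12722213 (plus).
ced-7: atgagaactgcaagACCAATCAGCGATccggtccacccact
clc-31: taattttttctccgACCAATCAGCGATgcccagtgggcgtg
attf-3: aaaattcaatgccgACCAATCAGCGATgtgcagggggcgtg
srt-47: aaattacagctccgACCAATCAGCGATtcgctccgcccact
Y75B8A.8: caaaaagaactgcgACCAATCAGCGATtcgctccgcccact
fcd-2: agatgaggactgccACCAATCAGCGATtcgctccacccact
golg-4: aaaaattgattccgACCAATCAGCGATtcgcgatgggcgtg
W03C9.2: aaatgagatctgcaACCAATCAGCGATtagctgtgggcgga
tbc-17: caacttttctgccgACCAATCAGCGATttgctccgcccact

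Wider windows of 60 bases on either side of the summit show how such copies sat beside a further CCAAT and how other strong regions differed. CCAAT on either strand is in capitals, so that ATTGG is a CCAAT read on the other strand, and all are on the plus strand of WBcel235. The stretches are chrIII:9571022-9571142, chrII:341416-341536, chrIII:84552-84672, chrIV:1831357-1831477 and chrIII:3897577-3897697. The clc-31 and attf-3 windows each had a CCAAT and an ATTGG that face each other, with the shared word on the left and most of its letters again, on the other strand, on the right. The ced-7 window had 2 CCAAT in the same direction. The cmk-1 and tir-1 windows had none in the stretch shown and were tandem arrays of a short unit.
ced-7: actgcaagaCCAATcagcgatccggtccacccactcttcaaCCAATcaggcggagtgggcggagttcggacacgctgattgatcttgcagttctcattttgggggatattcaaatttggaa
clc-31: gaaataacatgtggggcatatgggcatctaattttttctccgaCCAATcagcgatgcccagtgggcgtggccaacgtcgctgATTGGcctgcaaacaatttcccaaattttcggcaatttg
attf-3: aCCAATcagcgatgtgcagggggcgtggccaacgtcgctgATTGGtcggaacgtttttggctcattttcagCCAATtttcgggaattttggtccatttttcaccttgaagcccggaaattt
cmk-1: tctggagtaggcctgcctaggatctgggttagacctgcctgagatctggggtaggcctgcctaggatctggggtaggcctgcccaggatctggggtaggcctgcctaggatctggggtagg
tir-1: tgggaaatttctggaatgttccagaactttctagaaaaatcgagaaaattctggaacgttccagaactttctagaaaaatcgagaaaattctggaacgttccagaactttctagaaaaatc

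The highest signal of any intron region was in ced-7, which encodes an ABC transporter needed for the engulfment of dying cells. The summit lay at chrIII:9571082-9571082 in intron 15 of 15, the last intron, 341 bp from its 5′ end and 200.0 bp from its 3′ end. The signal was 227 in the list of both replicates, 114 in replicate 1 and 111 in replicate 2. It was rank 26 of all ranked regions, and it was the only intron region on the thresholded lists of both replicates. All other intron regions were 240 bp wide, and its interval was narrower.

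Next came cmk-1, which encodes calcium/calmodulin-dependent protein kinase I, with 111 in the list of both replicates, 53.4 in replicate 1 and 55.7 in replicate 2. The region in zip-7, which encodes a basic leucine zipper transcription factor, had 102 in the list of both, 34.3 in replicate 1 and 61.8 in replicate 2. Both lie on chromosome IV, and neither held a CCAAT within 100 bp of the summit. The cmk-1 and ced-7 values differed between replicates by a few percent, and that of zip-7 by more than that.

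Several of the strongest regions lay in chemoreceptor genes, which encode G protein-coupled receptors of sensory neurons. The region in sre-45 had 91.5, with 45.5 in replicate 1 and 43.5 in replicate 2. The region in str-222 had 86.002, with 19.7 in replicate 1 and 68.9 in replicate 2, the widest gap between replicates among the 25. It was not on the conservative list. The region in srt-47 had 76.2 (28.4 and 51.6), that in srw-100 had 73.5 (23.8 and 50.4) and that in srx-82 had 63.0 (30.4 and 28.8). Of these, srt-47 held the shared word, and srx-82 held a CCAAT without it.

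In tir-1, which encodes the worm relative of the axon degeneration factor SARM1, 2 of the 25 strongest regions lay in the first intron of 9962 bp. One had 82.4 in the list of both, 43.8 in replicate 1 and 38.2 in replicate 2. The other had 65.5, 44.5 and 23.4. All of the 31-base words in the window of the first (100%) and 95.3% of those of the second occur at 2 or more places in the genome. How such repeated sequence moved the signal was not tested.

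Among the other strong regions, clc-31, named for claudin-like proteins, had 81.6 (48.02 in replicate 1 and 36.4 in replicate 2) in its only intron of 591 bp. The region in attf-3, which encodes an AT hook protein, had 78.5 (36.9 and 39.0) in intron 5 of 17. Both held the shared word and were on the conservative list. The region in ptr-17, a patched-related gene, had 80.4 (30.001 and 46.8), and that in mom-1, whose product is the worm Porcupine needed for Wnt secretion, had 73.4 (33.0 and 37.5). Each held a CCAAT a few bases from the summit and no extended consensus.

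The region in ego-2, which interacts genetically with the Notch receptor gene glp-1 in the germ line, had 71.2 (31.0 in replicate 1 and 40.3 in replicate 2) in its last intron. The region in fcd-2, the gene of the worm FANCD2 protein of DNA repair, had 65.6 (33.9 and 37.7). The region in stim-1, which encodes a calcium sensor of the endoplasmic reticulum, had 64.0 (32.8 and 31.8). Replicate 2 was the higher of both in 18 of the 25 strongest regions. The remaining hosts of the 25 were F31E3.12, Y56A3A.7, spsb-1, Y69A2AR.31, Y75B8A.8, golg-4, Y51F10.4 and Y56A3A.28, with signals from 62.9 to 79.7.

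**Figure D1:**
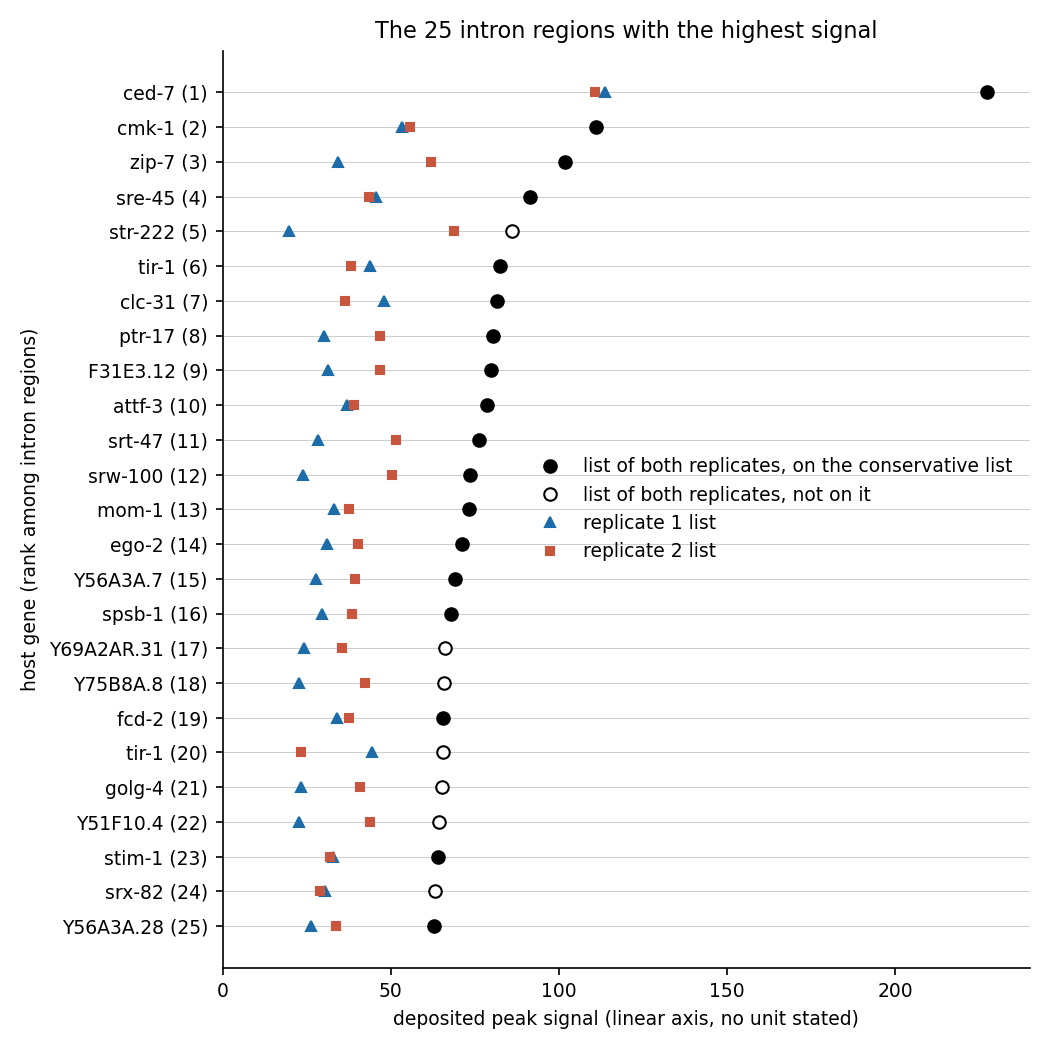
The deposited peak signal (linear axis) of the 25 strongest intron regions, by host gene, in the list of both replicates (black, filled where the region is on the conservative list) and in the lists of replicate 1 and replicate 2. The ced-7 region stands at 227, the others between 62.9 and 111, and the replicate signals lie closest to each other for ced-7, cmk-1, attf-3, sre-45, stim-1 and srx-82.

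Intron regions were few among the strongest of the ranked list and more frequent lower down. They made up 3 of the 100 strongest regions, 110 of the 1000 strongest (11.0%, 95% Wilson interval 9.21 to 13.1) and 1813 of the 10000 strongest (18.1%, 17.4 to 18.9), against 22.1% of all. In the list of replicate 1 they were 2 of the strongest 100 and 113 of 1000, and 9772 of 44931 in all (21.7%). In the list of replicate 2 they were 3 of 100 and 140 of 1000, and 12164 of 55696 in all (21.8%). These intervals, like all in the text, cover counting error only, and the depth of the libraries is unknown. The median signal of intron regions was 22.05 (quartiles 16.2 and 28.5) and that of the other regions 23.2 (17.2 and 29.9). Medians were 13.6 and 13.9 in replicate 1, and 15.03 and 15.5 in replicate 2, so the lower median held in each list while most of the ranges overlapped.

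Regions were also counted per length of the sequence they could lie in. The rule admits 26063882 bp, 25.99% of the genome, and it held 60.7 ranked regions per 100 kb. Sequence outside coding genes held 60.9 per 100 kb, stretches near gene starts 70.9 and exons 92.7. Intron sequence thus held about as many per length as sequence outside coding genes and fewer than the other classes. The highest signals of the classes were 227 in introns, 123 in exons, 582 outside coding genes and 2433 near gene starts.

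**Figure D2:**
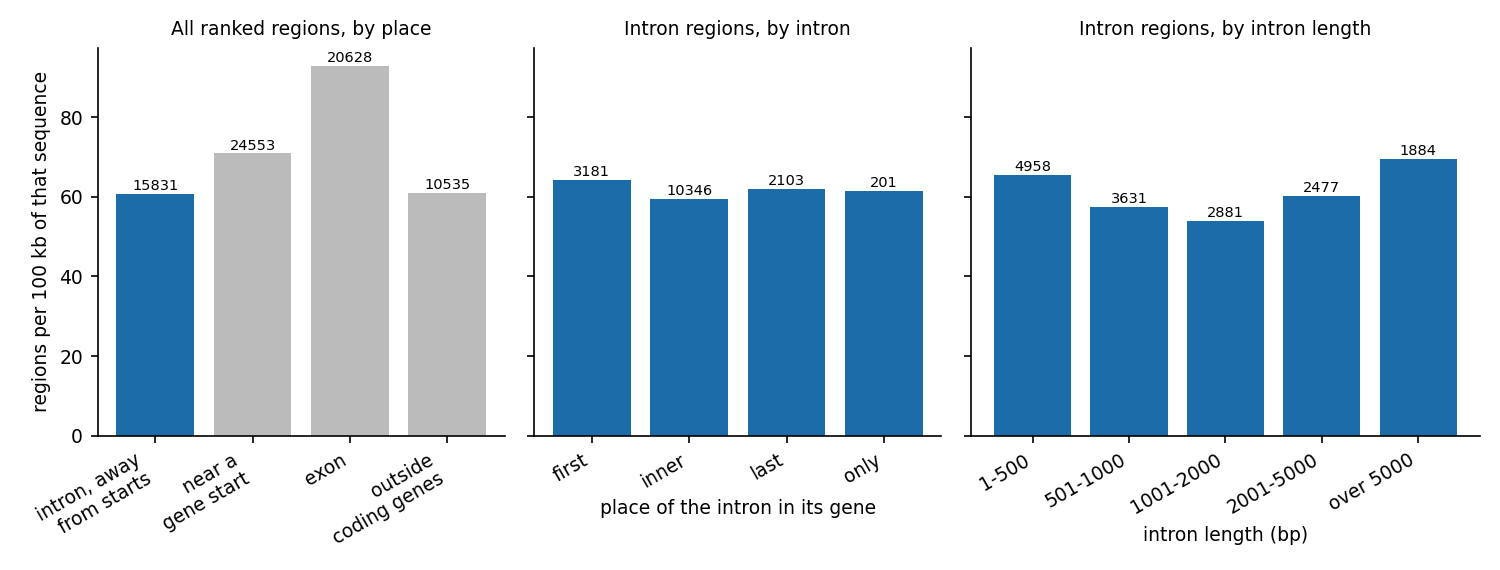
Regions per 100 kb of the sequence they could lie in (bars from 0), for all ranked regions by place (left), and for intron regions by the place of the intron in its gene (middle) and by intron length (right), with the number of regions above each bar. Introns and sequence outside coding genes are near 61, exons at 92.7, and intron classes lie between 53.9 and 69.4.

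A small part of the intron regions was on the authors' thresholded lists. On the list that its deposited name calls conservative were 27 intron regions (0.171%, 0.117 to 0.248) and 261 others (0.468%, 0.415 to 0.529), against 0.403% of all ranked regions. The difference was -0.298 percentage points (95% Newcombe interval -0.378 to -0.204). On the other thresholded list of the series were 42 (0.265%, against 0.621% of all), on the replicate 1 list 6 (0.0379%, against 0.129%), and on the replicate 2 list 4 (0.0253%, against 0.131%). At a global irreproducible discovery rate (IDR, the expected share of regions not reproduced) of at most 0.05 there were 99 (0.625%, against 1.32% of all). Intron regions were thus below the share of all ranked regions on each list.

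The 27 conservative regions lay in 27 different genes, with signals from 36.3 to 227. Of these, 18 were among the 25 strongest. The other 9 were in R107.5 (62.8), smp-1 (62.2), W03C9.2 (62.2), str-214 (55.7), mod-5 (55.4), epg-9 (55.1), srg-64 (55.1), metr-1 (47.4) and arrd-6 (36.3). These include the genes of a semaphorin (smp-1), of the serotonin transporter (mod-5), of an autophagy initiation protein (epg-9) and of methionine synthase (metr-1). The lowest, arrd-6, an arrestin domain gene, had 24.7 and 37.8 in the 2 replicate columns of the list, of which the second exceeded the signal of both together. Only ced-7 was on both replicate lists, 7 were on 1 of them and 19 on neither. No intron region with an IDR of at most 0.01 was off the conservative list.

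Some of these summits lay close to an exon. Of all intron regions, 9428 (59.6%) had an interval free of exon sequence, and 1745 had more than 50% exon. Of the 27 conservative regions, 20 were free of exon. The summit in metr-1 was 1 bp from the end of an intron of 45 bp, and the F31E3.12 summit lay in an intron of 41 bp, so that most of each interval was exon. The median signal was 21.9 for intervals without and 22.2 for intervals with exon bases, a smaller gap than the one between intron regions and the rest.

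Intron regions followed the supply of intron sequence in their position. First introns held 3181 intron regions, 20.1% (19.5 to 20.7) against 18.99% of the eligible sequence. Inner introns held 10346 (65.4% against 66.7%), last introns 2103 (13.3% against 13.0%) and introns that are the only one of their gene 201 (1.27% against 1.26%). The first introns thus held slightly more than their share and inner introns slightly less. Of the 27 conservative regions, 3 lay in first, 15 in inner, 8 in last introns and 1 in an only intron. The last introns among them were those of ced-7, zip-7, sre-45, F31E3.12, mom-1, ego-2, mod-5 and arrd-6.

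By length, introns of up to 500 bp held 65.4 regions per 100 kb, those of 501 to 1000 bp 57.5, those of 1001 to 2000 bp 53.9, those of 2001 to 5000 bp 60.2 and longer ones 69.4. The density was lowest at middle lengths, and the median signal differed little, from 21.8 to 22.6. Introns of 1001 to 2000 bp, the sparsest class, held 9 of the 27 conservative regions, with 18.2% of all intron regions and 20.5% of the eligible sequence. The other classes, from short to long, held 6, 5, 5 and 2. These counts are small and no interval was computed for them. The median intron region lay 376 bp from the 5′ end and 363 bp from the 3′ end of its intron, and 2540 bp from the start of its gene. Cut into equal parts, introns over 1000 bp held 2305, 2441 and 2496 regions from the 5′ to the 3′ part. Starts of annotated transcripts other than the gene start were as near as the rule forbids for gene starts at 1913 intron regions (12.1%). Their median signal was 22.04, and 0 of these were conservative, while the 13918 away from them held all 27. At a share of 12.1% few of 27 would lie near such a start, and no interval was computed.

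At the edges of the rule, 1098 intron regions 201 to 400 bp downstream of the nearest start had a median signal of 22.2 and 1065 regions left out, up to 200 bp downstream of a start and otherwise in intron, had 22.5. The 755 intron regions 1001 to 1200 bp upstream of the nearest start had 22.2, and 701 left out at 801 to 1000 bp had 22.7. No conservative region lay just inside either edge, and 2 lay just outside each. The median signals changed little across the edges of the rule, but the highest signals did not stay alike. At the downstream edge the highest was 65.96 inside and 105.1 outside. At the upstream edge it was 61.02 inside and 234 outside.

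The intron regions lay in 7128 host genes, 42.4% of the 16806 coding genes with eligible intron sequence. Hosts with 1 region numbered 3932, and 671 hosts had 5 or more. The gene with the most was hmr-1, which encodes the worm's classical cadherin, with 35 regions in 43373 bp and a strongest signal of 60.9 (30.6 and 28.7 in the replicate columns). It was followed by kin-1, the gene of the catalytic subunit of protein kinase A, with 30 regions in 30446 bp, and by Y48C3A.5, mpz-1, rhgf-3 and F53A10.2 with 28 each. None of these 6 had a region on the conservative list, which held 0.171% of all intron regions, so the absence says little about these genes. Genes with the most regions had much eligible sequence, whereas the gene with the strongest region, ced-7, had 1 region in 3885 bp.

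**Figure D3:**
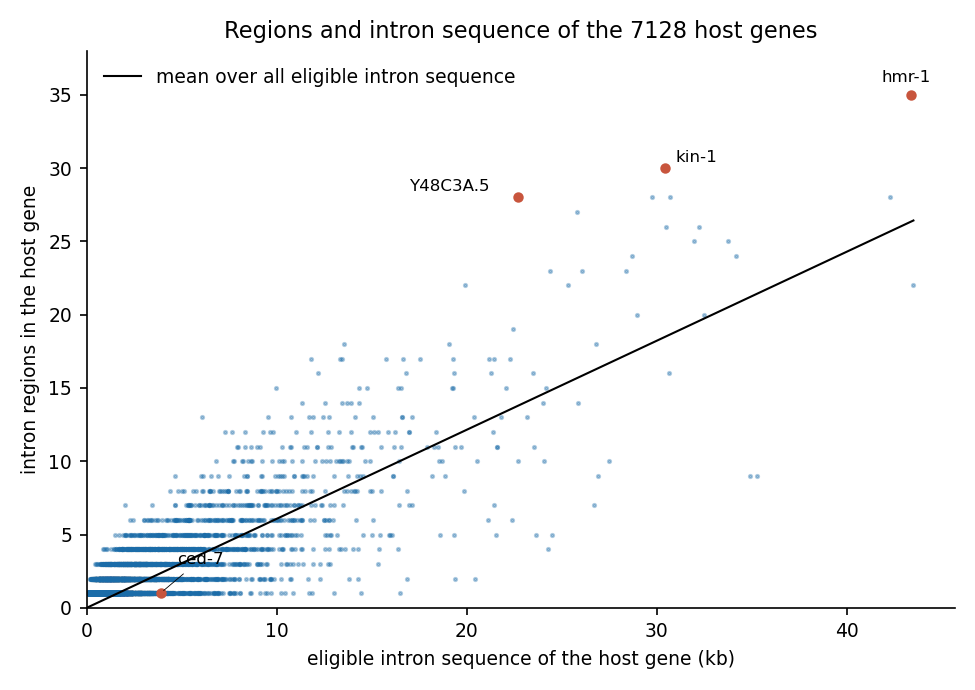
Each point is a host gene, placed by its eligible intron sequence in kb and its number of intron regions, with the line at 60.7 regions per 100 kb. Host genes at upper right, such as hmr-1 with 35 regions, have over 20 kb of eligible sequence, and ced-7 with the highest signal has 1 region.

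Gene lists chosen for functions in the worm gave densities on either side of that of all coding genes. Of 30 genes of neuronal function and synapse, 28 had eligible sequence and 22 hosted 132 regions, 73.5 per 100 kb against 60.7 for all coding genes. The strongest were in unc-43, the gene of calcium/calmodulin-dependent kinase II (43.1, with 20.03 and 22.7 in the replicate columns), and in rab-3, the gene of a synaptic vesicle GTPase (42.5, with 22.4 and 18.99). Of 25 muscle genes, 17 hosted 99 regions, 67.5 per 100 kb, led by dys-1 for dystrophin (40.7) and act-4 for actin (39.8). Of 20 homeodomain genes, 16 hosted 41 regions, 70.1 per 100 kb, led by vab-7 (48.4) and mab-5 (34.1). None of these 3 lists had a conservative region. Only 0.171% of all intron regions were conservative, so the absence says little for lists of this size.

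Of 20 genes for extracellular matrix and adhesion, 12 hosted 58 regions, 59.5 per 100 kb, and after hmr-1 the strongest was in him-4 (49.9), which encodes hemicentin. Of 20 germline regulators, 5 hosted 9 regions, 65.1 per 100 kb, with the strongest in mex-1 (44.2) and mex-3 (38.4), whose products bind RNA in the early embryo. The mex-1 region held the shared word. Of 10 genes for folding in the endoplasmic reticulum, 3 hosted 14 regions, 99.6 per 100 kb, led by pdi-3 (43.2) and ero-1 (29.4). Of 7 engulfment genes, 5 hosted 8 regions, 33.4 per 100 kb, among them ced-7 and ced-1 (32.4).

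The genes of NF-Y itself hosted few intron regions. Of 4 subunit genes, 3 had eligible sequence and 2 hosted 5 regions. None of the 5 was on the conservative list, but only 0.171% of all intron regions were, so this absence says little about these genes. The nfya-2 gene, which carries the tag, had 4 regions of which the strongest had 24.1, with 8.72 and 14.7 in the replicate columns. The strongest in nfyb-1, a B subunit gene, was 25.3 (8.69 and 18.2). Of egl-5 and tbx-2, a Hox and a T-box gene reported to be regulated by NF-Y, tbx-2 had 3 regions of up to 29.1 and egl-5 none. These strongest values, 24.1 to 29.1, lie between the median of all intron regions and just above their upper quartile of 28.5.

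CCAAT was somewhat less frequent in intron regions than in the rest of the list. Within 100 bp of the summit, 5609 intron regions (35.4%, 34.7 to 36.2) held a CCAAT on either strand, and 21431 of the other regions did (38.5%, 38.1 to 38.9). The difference was -3.03 percentage points (-3.88 to -2.18). Exon regions held it most often (42.8%), regions near gene starts in 36.5% and regions outside coding genes in 34.6%. Against the last, the difference was 0.85 percentage points (-0.326 to 2.02), within counting error.

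Base composition differed between the groups. The windows of intron regions had a mean GC content of 37.3% ± 7.07 (SD over regions) and those of the others 39.2% ± 7.07, while all eligible intron sequence had 31.9%. With the others weighted to the GC content of intron regions over 5 bands, the difference was -2.79 percentage points. CCAAT was lower in intron regions in each of the 5 bands, with differences of -5.18 to -1.70 points, but in the middle band the interval included 0. The extended consensus was in 417 intron regions (2.63%) and 1469 others (2.64%), a difference of -0.00251 percentage points (-0.277 to 0.289).

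The word CCAAT was set beside the 30 words made of the same letters, 2 A, 2 C and 1 T. It was the fourth most frequent in intron regions, the sixth in the others and the first among the 27 conservative intron regions, where 13 (48.1%, 30.7 to 66.0) held it. Over the 30 words the difference between intron regions and others ranged from -9.93 to 6.22 percentage points with a median of -1.59. The value for CCAAT thus lies inside the range of words of the same composition. The coding strand of the host gene carried 51.6% (50.4 to 52.7) of the 7345 CCAAT of intron regions and 53.6% of those of all eligible intron sequence. The bases up to 24 bp from the summit held 23.6% of them and were 24.9% of those searched. Over all intron regions CCAAT was thus no denser at the summit than around it. In the other ranked regions it stood at 2.70 per kb up to 24 bp from the summit and at 2.46 per kb from 75 to 98 bp. Of the 25 CCAAT in the 27 conservative intron regions, 11 (44%) lay within 24 bp of the summit and 11 between 50 and 74 bp.

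Among intron regions the share with a CCAAT was highest at the top of the signal ranks. In the 100 strongest the share was 7.62 percentage points above that of the rest, rank 45 of 512 pentamers. On the conservative list it was 12.7 points above that of the other intron regions, rank 46. No such ranking was made for the 25 strongest. Mean GC content was 42.1% in the 25 strongest and 43.7% at ranks 26 to 100, against 37.3% in all intron regions. These pentamer ranks were not weighted for GC content. Of the 25 strongest intron regions, 16 held CCAAT (64.0%, 44.5 to 79.8) and 7 the extended consensus (28.0%, 14.3 to 47.6). At ranks 26 to 100 these shares were 36% and 6.67%, at ranks 101 to 1000 38% and 5.44%, and below that 35.2% and 2.40%. Among the other regions the strongest 25 held CCAAT in 9 (36%, 20.2 to 55.5) and the extended consensus in 5 (20%, 8.86 to 39.1). These 2 sets of 25 share no signal range, with 62.9 to 227 in introns and 234 to 2433 in the others. Others with signals of 97.7 to 220 (ranks 26 to 100) held CCAAT in 26.7% and the extended consensus in 6.67%. Those with 49.8 to 96.7 (ranks 101 to 1000) held them in 35.9% and 4.89%. No interval of the difference was computed for the 25 strongest, and the overlap of the intervals of both groups does not show that the shares agree. On the conservative list, 6 of 27 intron regions held the extended consensus (22.2%, 10.6 to 40.8) and 26 of 261 others did (9.96%, 6.89 to 14.2), again without an interval of the difference.

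**Figure D4:**
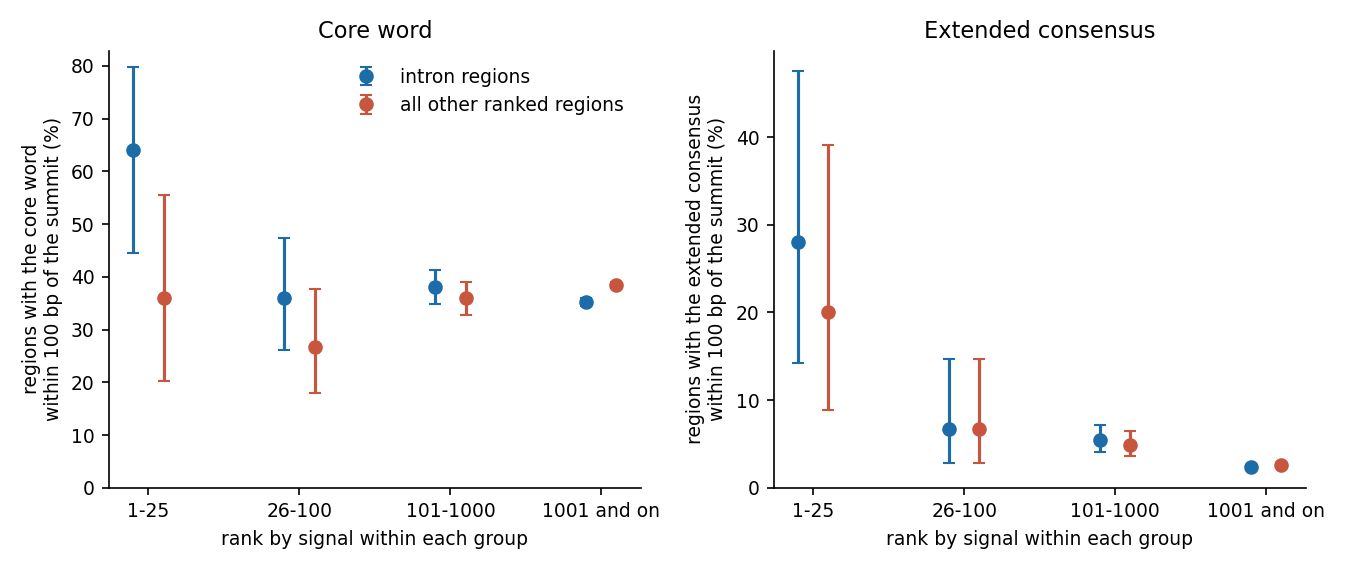
Share of regions (%) with the core pentamer (left) and the extended consensus (right) within 100 bp of the summit, by rank of signal within intron regions (blue) and within all other ranked regions (red), with 95% Wilson intervals. The extended consensus falls from 28.0% of the 25 strongest intron regions to 2.40% of those past rank 1000.

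The 13-base word shown at the start was held by most of the strong intron regions with an extended consensus. Within 100 bp of the summit it was present in 69 intron regions in 57 host genes, among them 7 of the 25 strongest and 10 of the 100 strongest. Of the 12 intron regions among the strongest 100 with the extended consensus, 2 lacked the word. The median signal of the 69 was 33.5 (quartiles 24.8 and 44.2), and of the 15762 intron regions without it 22.03. The word was derived from 6 of the strong regions, which had to raise this value; the 63 that were off the conservative list had a median of 32.4 and a range up to 66.0, and 19 of them (30.2%) were among the 1000 strongest intron regions, against 6.32% of all intron regions.

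The median signal was also higher with the word in each replicate list. These lists come from the same 2 libraries and include regions that defined the word, so they are no independent check. In replicate 1, 50 intron regions held it, with a median of 16.9 against 13.5 without, and in replicate 2 there were 59, with 19.5 against 15.02. The 348 intron regions with an extended consensus but without the word had a median of 23.7, the 5192 with only the pentamer 22.1, and the 10222 with no CCAAT 21.97. The pentamer alone thus left the median signal where it was without one. Weighted to the GC content of the 69, regions without the word had a mean of band medians of 23.7. Of the other ranked regions 43 held the word, 20 of them near gene starts, with a median of 30.1 against 23.2 without. A higher median with the word was thus also seen among the regions that the rule left out, a set that includes introns near gene starts.

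**Figure D5:**
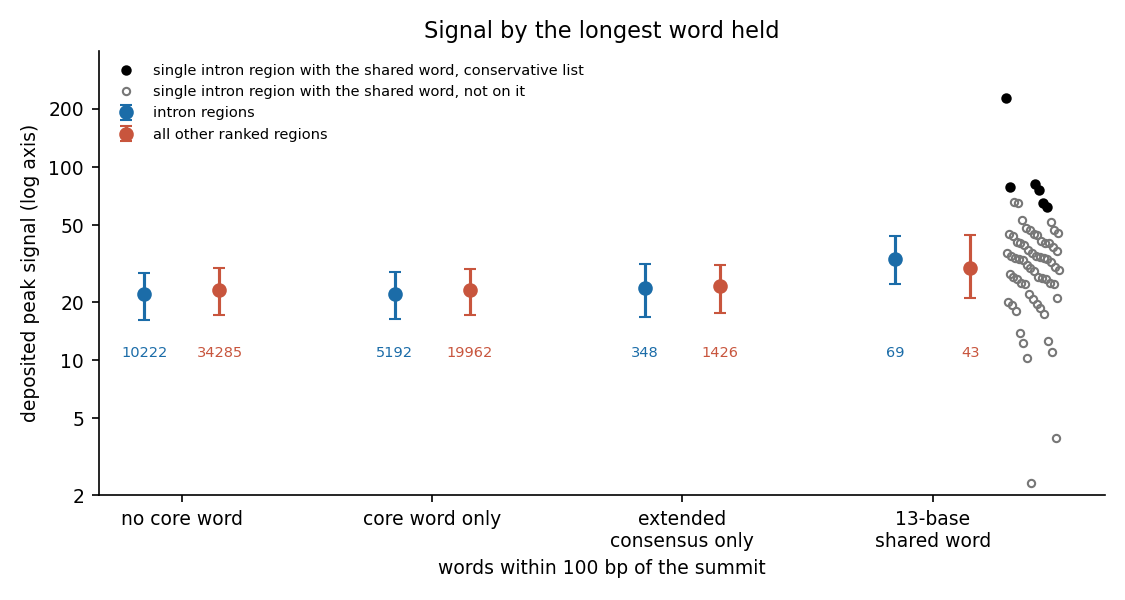
Median and quartiles of the deposited peak signal (log axis) of intron regions (blue) and of all other ranked regions (red), by the longest word within 100 bp of the summit, with the number of regions below each, and the single values of the 69 intron regions with the shared word at right. The medians of the first 3 classes lie between 21.97 and 24.1, and those with the shared word at 33.5 and 30.1.

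Copies of the word were common in introns. The genome held 370 copies on both strands, of which 222 (60%) lay in eligible intron sequence, which is 25.99% of the genome. The word was chosen from intron regions, which favours a word that lies in introns. Of the 222 copies, 113 were on chromosome III. Of those 222, 79 (35.6%, 29.6 to 42.1) were within 100 bp of the summit of an intron region. Of all eligible intron bases 10.3% were that close to a summit, of the 54504 CCAAT 11.0%, and of the 2579 extended consensus sites 20.7%. Words with the letters of CCAAT ranged from 9.51% to 12.6%. The copies that defined the word are among the 79.

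The copies were spread unevenly over the chromosomes. Chromosome III had 151 of the 370 copies and 37 of the 69 intron regions with it. The X chromosome had 3 copies, 0 of them in eligible intron sequence, and 0 regions. The median signal with the word was 31.0 on III, against 21.8 for other intron regions there, and 35.2 on the remaining chromosomes, against 22.1. The most in 1 host were 5, in Y75B8A.7, followed by pqn-80 and F56F11.4 with 3 each. A second intron region with the word lay in the same intron of fcd-2, with a signal of 47.3 (22.2 and 22.8 in the replicate columns).

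At these regions CCAAT was usually not single. Of the 69, 67 (97.1%) held 2 or more CCAAT and 47 (68.1%) a CCAAT and an ATTGG that face each other, with a median gap of 31 bp. Of the 5540 intron regions with CCAAT and without the word, 1263 (22.8%) held 2 or more and 362 (6.53%) a facing pair, with a median gap of 45 bp. Inner introns held 48 of the 69, last introns 13, first introns 6 and only introns 2. In none of their windows did over 50% of the 31-base words occur at 2 or more places. The median share of such words was 4.09%, against 0% in intron regions without the word, and 24 of the 69 windows had none, against 11729 of 15762. No repeat annotation was used here, and whether the copies belong to a repeat family was not tested.

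Other strong intron regions lay in repeated sequence. Windows in which over 50% of the 31-base words occur at 2 or more places made up 8 of the 25 strongest intron regions (32.0%), 6 of the 27 conservative ones (22.2%) and 791 of all (5.00%), against 3.73% of the other regions. Of the 261 other regions on the conservative list they made up 28 (10.7%), so the share was higher on that list among the regions that the rule left out too. Besides both tir-1 regions, the 8 among the 25 strongest included those in cmk-1 (68.4% of its words), str-222 (64.3%), ptr-17 (66.1%), srw-100 (87.1%), Y51F10.4 (94.2%) and stim-1 (57.9%). None of these 8 held the extended consensus or the shared word.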

How the data were processed

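Peak lists from 2 ChIP-seq libraries of 1 group were analysed. The members, word lists and gene lists were chosen with earlier results of these data known, and the 13-base word after seeing the sequences. The peak signal is the authors' deposited value per region, with no scaling stated; it was used within 1 list only. The deposited −log10 of the global IDR was turned into an IDR. Per the text deposited with the files, the lists use ce11 coordinates and were made from filtered alignments with a control; the sources used here name no aligner or peak caller. The 2 replicate columns of the series list have no header; for the 25 strongest intron regions their values equal those of the replicate 1 and replicate 2 lists (100%), but over all 15831 only 61.9% of the first and 45.3% of the second do, so values in the replicate columns are named as the columns' own, and smp-1 is given from the columns.

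Summits were placed on Ensembl 115 genes (WBcel235) with Python 3.11.15, numpy 2.4.6, pandas 2.3.3 and scipy 1.17.1. An intron is a gap between all merged exons of a gene, and a summit in several was given to the shortest. Words were counted on each strand up to 100 bp from the summit. Shares carry 95% Wilson intervals and their differences 95% Newcombe intervals. List membership needed an overlap of 1 bp. No p-value is given, since regions are not replicates and both libraries belong to 1 group. Functions were tested on simulated sequence. Depth is unknown, which limits any statement on weak regions. Named are the hosts of the 25 strongest intron regions, all conservative ones and up to 2 per gene list; other names were chosen after their values were seen. Alternatives changed the list, start window, exons, position and word window.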

Additional observations from a re-analysis of the deposited data

How the results depend on the processing

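No paired analysis was possible because both libraries belong to 1 group. No result with an interval that excludes 0 changed its sign under any alternative run. Moves are judged against the SD between the replicate lists, which is small. With 1 replicate list in place of both, the share of intron regions was 21.7% to 21.8%, the ratio of median signals (intron regions over others) 0.971 to 0.974 against 0.952, the conservative difference -0.438 to -0.369 percentage points, the CCAAT difference -3.04 to -2.90, the extended difference -0.0937 to 0.379 and the first-intron excess over eligible sequence 1.05 to 1.55 points against 1.11. The other ranked list gave 23.0%, a ratio of 0.946, a conservative difference of -0.183 and a first-intron excess of 0.691. A start window of 2000 bp upstream and 500 bp downstream gave 15.7%, 0.95005 and a CCAAT difference of -2.56; all transcript starts 19.5% and -2.71; exons of coding genes only 22.2%. Keeping the strongest of overlapping or equal-signal regions gave 21.9%, 0.957 and -2.74. The middle of the interval equals the summit and changed nothing. The conservative difference was -0.456 on the other thresholded list, -0.151 for conservative regions above their median signal and -0.893 for an IDR of at most 0.05. The CCAAT difference was -2.64 within 50 bp and -2.76 within 200 bp. Chosen after seeing the data, intervals free of exon gave a ratio of 0.948 and a CCAAT difference of -4.26. The extended difference has an interval that includes 0, except without replicate 2 (0.0146 to 0.773) and within 50 bp (0.232, 0.0201 to 0.461). The cause of these moves was not tested. The ratio of median signals with the shared word to those without was 1.52, and 1.24 to 1.67 under the alternatives, all chosen after seeing the data. The unknown depth limits any statement on weak regions.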

Other observations

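Chemoreceptor genes of the sr, str and odr families, a group chosen after the strongest regions were seen, hosted 5 of the 25 strongest intron regions (20%, 95% Wilson interval 8.86 to 39.1), 8 of the 100 strongest (8%, 4.11 to 14.998), 42 of the 1000 strongest (4.2%, 3.12 to 5.63) and 5 of the 27 conservative ones (18.5%, 8.18 to 36.7). Over all ranks they hosted 501 intron regions (3.16%, 2.90 to 3.449) and held 3.14% of the eligible intron sequence. Their median signal over all ranks was 22.02 and that of the other intron regions 22.05. Of the 5 among the 25 strongest, str-222 and srw-100 lay in windows that were mostly repeated sequence, while sre-45 (7.02% of its 31-base words repeated) and srt-47 (4.09%) did not, and srx-82 had 30.4%.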
